A study of Mus musculus with 28 samples.

Results

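The promoter contacts of C10 cells after 48h of induction were compared with those after 12h. Promoter Capture Hi-C (PCHi-C) cuts cross-linked chromatin with the restriction enzyme HindIII, ligates fragments that lie close together in the nucleus and enriches the ligations that hold a promoter fragment, the bait. Each unordered pair of fragments in the 12h list or the 48h list was counted once, which gave 196595 pairs of the 273644 found in the 4 lists of the series (0h, 1h, 12h and 48h). C10 is a mouse Pre-B cell line derived from HAFTL cells, and every sample, the uninduced 0h cells included, carried the CEBPalpha-ER transgene, a fusion of rat C/EBPα with the hormone-binding part of the estrogen receptor. Both groups compared here had received 100 nM β-estradiol, 10 nM IL-3 and CSF-1, the first for 12h and the second for 48h. RNA-seq gave 3 libraries at each time, whereas the 2 PCHi-C replicates of each time were merged before deposit, so that each time has 1 list, no replicate error and no test. All samples came from 1 cell line.

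C/EBPα is a transcription factor of the myeloid lineage that, when it enters the nucleus of B lineage cells, switches on macrophage genes and stops cell division. A promoter can touch distant regulatory DNA through chromatin looping, and such contacts can exist before a gene is transcribed or be made and lost along with it. Macrophages are phagocytic cells rich in scavenger receptors, lysosomal proteases and genes that respond to interferon, whereas Pre-B cells divide rapidly and rearrange immunoglobulin genes.

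Marker genes were first set beside the labels. In TPM, a level per transcript length and library total, scaled between libraries, the summed level of 8 macrophage markers lay between 178 and 203 in the 12h libraries and between 820 and 1050 in the 48h libraries, and 6 of the 7 tested markers rose. The summed level of 8 Pre-B cell markers lay between 46.8 and 50.1 at 12h and between 22.2 and 30.3 at 48h, with 3 of 8 lower, so that Pre-B transcripts were still present at 48h. Neutrophil markers summed to between 7.80 and 10.1 at 12h and to between 1.97 and 4.56 at 48h, and T cell and erythroid markers stayed under 1 in all 6 libraries, with 6 of 8 erythroid and 3 of 8 T cell genes at 0. In these bulk samples, fewer cells of a type and less RNA or fewer contacts per cell cannot be told apart.

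A pair of HindIII fragments shows what a contact gained between 12h and 48h looks like in the lists. Both are whole fragments of at most 300 bases, read from the plus strand of GRCm38.p6 (mm10). They are shown because the RNA of the genes whose promoters they were paired with rose at 48h. These genes are the scavenger receptor gene Cd36 and the collagenase gene Mmp13. The first, chr5:17962474-17962742, lay 73.9 kb from the Cd36 bait, was itself a bait, and was absent from the 0h, 1h and 12h lists of that bait, with a value of 33 at 48h. The second, chr9:7351123-7351369, lay 76.8 kb from the Mmp13 bait and was likewise listed at 48h alone, with a value of 19. It lies within the span of the neighbouring gene Mmp12 (chr9:7344381-7369499). Capitals mark the only match of each to the C/EBP motif TTGCNNAA on either strand, a motif that 13.3% of the 1166 listed fragments of 200 to 300 bases hold. Fragments of this size were also lost near these genes. That at chr9:7545192-7545422, which holds the motif as well, had a value of 7 with Mmp13 at 12h and was not listed with it at 48h. With Mmp12, the same fragment had a value of 8 at both times. That at chr9:7536401-7536675, without the motif, was listed with Mmp12 and Mmp13 at 12h and with neither at 48h.
Cd36 partner: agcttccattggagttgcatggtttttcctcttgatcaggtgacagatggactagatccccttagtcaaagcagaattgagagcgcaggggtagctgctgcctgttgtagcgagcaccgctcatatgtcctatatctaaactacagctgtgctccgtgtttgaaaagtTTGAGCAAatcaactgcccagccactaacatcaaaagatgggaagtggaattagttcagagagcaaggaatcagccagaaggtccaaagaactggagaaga
Mmp13 partner: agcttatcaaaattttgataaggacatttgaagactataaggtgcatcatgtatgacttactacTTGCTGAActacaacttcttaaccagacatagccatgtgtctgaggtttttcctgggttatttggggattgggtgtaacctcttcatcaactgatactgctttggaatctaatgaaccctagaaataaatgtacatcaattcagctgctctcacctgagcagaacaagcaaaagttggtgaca

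The 12h list held 131598 pairs of 15488 baits and the 48h list 144072 pairs of 15352 baits. The fifth column of these lists holds whole numbers, which no header names and which fall with distance as counts of read pairs do, and they were taken as read pairs. They summed to 2867339 at 12h and to 3662329 at 48h, with a median of 14 and 15 per pair. Values were compared in ppm, that is read pairs per 1000000 of the list total.

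Of the 196595 pairs, 79075 (40.2%) were in both lists, 52523 (26.7%) at 12h alone and 64997 (33.1%) at 48h alone. Thus 60.1% of the 12h pairs were also listed at 48h (Wilson 95% interval 59.8 to 60.4, counting error only) and 54.9% of the 48h pairs were also listed at 12h (54.6 to 55.1). The step before it turned over as many pairs, since 59.4% of the 12h pairs were also listed at 1h and 56.7% of the 1h pairs at 12h. A pair is listed when its score passes a cut-off, so a pair absent from a list may lie just under it. When a partner within 10 kb was accepted for the same bait, 85.2% of the 12h pairs had a counterpart at 48h and 84.1% of the 48h pairs had one at 12h.

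Pairs in both lists were mostly older contacts. Among them, 72.7% were also listed at 0h and 73.1% at 1h, and 15.4% at neither. Of the pairs at 12h alone, 50.4% were listed at neither 0h nor 1h, against 59.0% of the pairs at 48h alone. The pairs at 48h alone were found at 1h less often (23.6%, 23.2 to 23.9) than the pairs at 12h alone (38.8%, 38.4 to 39.2), but at 0h about as often (30.9% and 31.2%, with overlapping intervals). Hence 20114 pairs of the uninduced cells were listed again at 48h after being absent at 12h.

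The pairs at 48h alone spanned longer distances and joined promoters with each other less often. The median distance between fragment midpoints was 158 kb for pairs in both lists, 189 kb at 12h alone and 204 kb at 48h alone. Both fragments were baits in 17.4% of the shared pairs and in 17.3% of the pairs at 12h alone, but in 10.2% (9.92 to 10.4) of those at 48h alone. Under 20 kb, 20.4% of the pairs were at 48h alone and 31.1% at 12h alone, and beyond 1 Mb these shares were 51.2% and 29.5%. The share of 12h pairs kept was highest, at 66.5%, between 50 and 100 kb and lowest, at 39.5%, beyond 1 Mb. Pairs at 1 time alone had lower values, with medians of 11 at 12h and 12 at 48h, than shared pairs, with medians of 16 and 19, and the lowest value that a list holds depends on distance (12 at 12h and 18 at 48h under 20 kb, 3 at both beyond 200 kb).

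**Figure D1:**
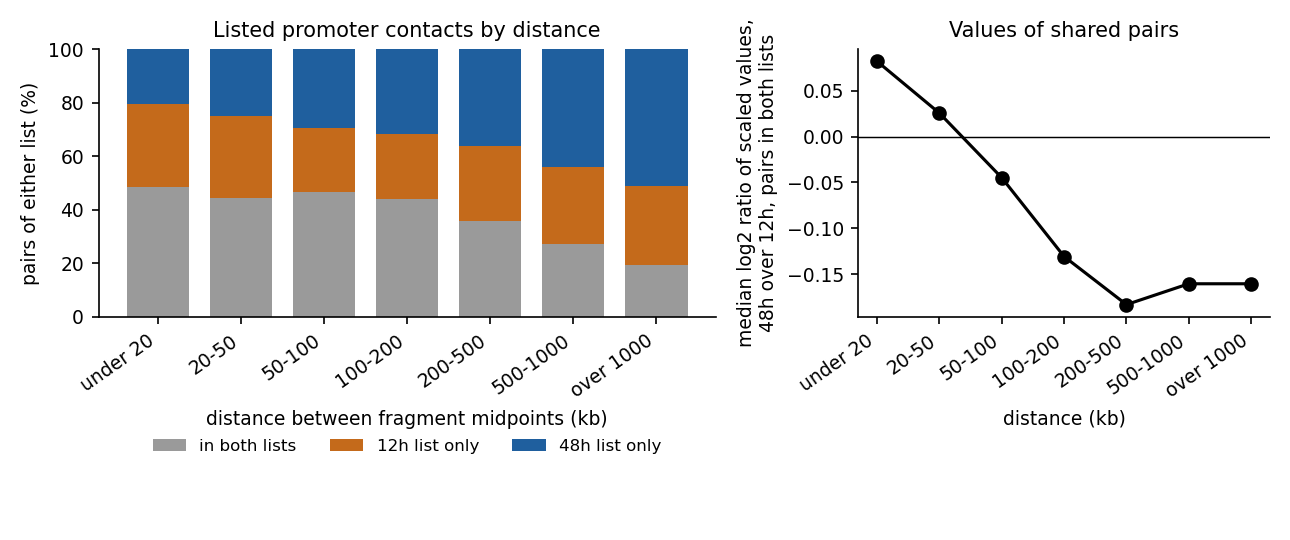
Left, the share of all listed pairs (%) in both lists, in the 12h list alone and in the 48h list alone, by the distance between fragment midpoints in kb. Right, the median log2 ratio (48h over 12h, in ppm of the list total) of the pairs in both lists. The 48h share grows from 20.4% under 20 kb to 51.2% beyond 1000 kb, while the median ratio goes from 0.08 to -0.18 at 200 to 500 kb.

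Pairs in both lists kept their values. They held 67.1% of the 12h total and 66.6% of the 48h total, and their median log2 ratio was -0.11 (quartiles -0.35 and 0.18). Only 618 of 79075 (0.782%) were more than 2-fold higher at 48h and 1693 (2.14%) more than 2-fold lower. These counts rest on the scaling. The read totals of the libraries were tried in place of the list totals. On that scale every log2 ratio is higher by 0.45 and the counts become 5150 and 113. All contact changes below are therefore relative to the list totals. The median log2 ratio was 0.08 under 20 kb and -0.18 between 200 and 500 kb, so that short contacts were relatively higher and long ones lower among the pairs that stayed.

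The 5 pairs in each direction named here were chosen by their change among pairs with a summed value of at least 40. The largest increase joined the Mmp13 bait with chr9:7218806-7219661, 55.2 kb away, with a value of 30 at 1h, 19 at 12h and 96 at 48h (log2 ratio 1.98). The others that were higher joined the baits of Nepn (10 to 50, 599 kb), Tspyl1 (8 to 39, 126 kb), Olfr701, an olfactory receptor gene (10 to 44, 172 kb), and Pcdh20, a protocadherin (8 to 35, 1008 kb). Of the 5 pairs with the largest decrease, 2 left the bait of Apoa4, an apolipoprotein gene, for fragments 247 and 231 kb away (30 to 11 and 29 to 11). The others joined the bait of Cog6 with a fragment 434 kb away (38 to 15), the bait of Scnn1g with that of Cog7 (32 to 13) and the bait of Bbs4 with that of Celf6 (28 to 12). All 10 pairs were listed at 1h too, and the decreases were 3.48-fold at most and the increases 3.96-fold.

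Summed over the pairs of a bait, 7535 of the 17277 baits with a pair in either list had at least 10 partner fragments. Of these, 798 (10.6%) gained contacts, with a log2 change over 1, and 1043 (13.8%) lost them, with a log2 change under -1. The median change was -0.07 (quartiles -0.61 and 0.47), and 588 baits lay within 0.1 of either limit, the nearest at 1.002 and 0.998 and at -1.001 and -0.998. From 1h to 12h, with the same rule, 9.38% of 7442 baits gained and 7.19% lost, although that comparison shares the 12h list with this one. With library totals as the scale, 1618 baits gained and 535 lost. That scale raises the log2 ratios of all baits by about 0.45. All 798 gaining baits therefore had to stay gaining, and none could pass to the opposite class, so this is no agreement between scales. Of the 1043 losing baits, 535 stayed losing.

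Gaining baits had a median of 6 pairs at 12h and 16 at 48h and kept 75% of their 12h partners, with a median value per pair of 14.3 and 21.8. Losing baits had 14 and 7 pairs, kept 33.3% of their 12h partners, and had 20 and 15.8 read pairs per pair. Over the pairs in both lists alone, 3047 baits had at least 10 partners, and their changes lay between -0.95 and 0.90. Most gaining and losing baits cannot enter that set, since their median number of pairs was under 10 at 1 of the times, and leaving out pairs listed once removes part of any change, so nothing is read from it. By the number of listed pairs, 532 of the 798 gaining and 625 of the 1043 losing baits were called the same way and 1 of each the opposite way. Among the baits with at least 10 partners, 7 had pairs at 12h and none at 48h, and 16 the reverse, of which 12 had had pairs at 0h.

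Baits of expressed genes among those with the largest gains were those of Ptbp2, a splicing regulator, Kdm4c, a histone demethylase, Abca1, the cholesterol exporter, Idh1, a dehydrogenase, Socs4 and Tmx4. The Ptbp2 bait went from no listed pair at 12h to 13 at 48h, the Kdm4c bait from 0 to 10 and the Abca1 bait from 0 to 14. The others went from 1 to 11 (Idh1), 3 to 11 (Socs4) and 2 to 11 pairs (Tmx4). The mean value per pair at 48h was 10.5 for Abca1, the lowest of the 6 baits. All 6 baits had had contacts at 0h, with 14 pairs for Socs4 and 7 for Abca1 but 1 for Ptbp2. Of the 6 genes, 2 rose in RNA by the test across all genes.

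Abca1 had 0.722, 0.512 and 0.547 scaled TPM in the 12h libraries and 3.59, 3.5 and 3.10 in those of 48h, with no overlap. Its log2 change was 2.34 (SE 0.27, limma adjusted p = 1.00e-04). Tmx4 had 0.563, 0.593 and 0.961 scaled TPM at 12h and 1.51, 1.55 and 1.49 at 48h, a log2 change of 1.04 (SE 0.27, limma adjusted p = 0.0186), and its call was lost without 12h replicate 1 (log2 change 0.92), without 12h replicate 2 (0.95) or without 48h replicate 2 (adjusted p = 0.0518, in a range of 0.0129 to 0.417 over all alternatives). The other 4 genes had log2 RNA changes between 0.11 (Socs4) and 0.61 (Idh1), none past the test.

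The largest losses were at the baits of Adam17, the protease that sheds TNF, Ksr1, a scaffold of the MAP kinase cascade, Atp2a3, a calcium pump, Iah1, Zfand2b, Ogdh, a mitochondrial dehydrogenase, Cyth2 and Nlgn2. The Adam17 bait went from 29 pairs at 12h to 0, the Ksr1 bait from 10 to 0 and the Atp2a3 bait from 11 to 0. This Adam17 bait lies inside the gene and does not hold its outermost start site. Over the 2 baits of Adam17 together, the pairs went from 31 to 2. Iah1 and Adam17 are neighbours on chromosome 12. The Iah1 bait (chr12:21313557-21318145) lies near the Adam17 bait that lost 29 pairs (chr12:21342176-21356094), so these losses are not from separate regions. The Iah1 bait held 16, 62, 16 and 1 pairs in the lists of 0h, 1h, 12h and 48h. The remaining 4 baits went from between 10 and 12 pairs to 1. Nlgn2 has a second bait, and over both the pairs went from 18 to 8 (log2 change -1.28). RNA moved both ways at the genes named here. Iah1 had 6.81, 7.61 and 7.08 scaled TPM at 12h and 2.52, 3.97 and 4.08 at 48h and fell by 1.03 on the log2 scale (SE 0.20, limma adjusted p = 0.0035), a change that was within 1 log2 unit without 12h replicate 2 (-0.99) or 48h replicate 1 (-0.81). Nlgn2, a synaptic adhesion gene, rose from 2.59, 2.48 and 2.05 to 6.63, 5.84 and 12.9 (log2 change 1.71, SE 0.37, limma adjusted p = 0.00649). The other 6, Adam17 among them with 18.2 ± 2.77 scaled TPM at 12h and 19.1 ± 2.16 at 48h (SD, n = 3), were not called.

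**Figure D2:**
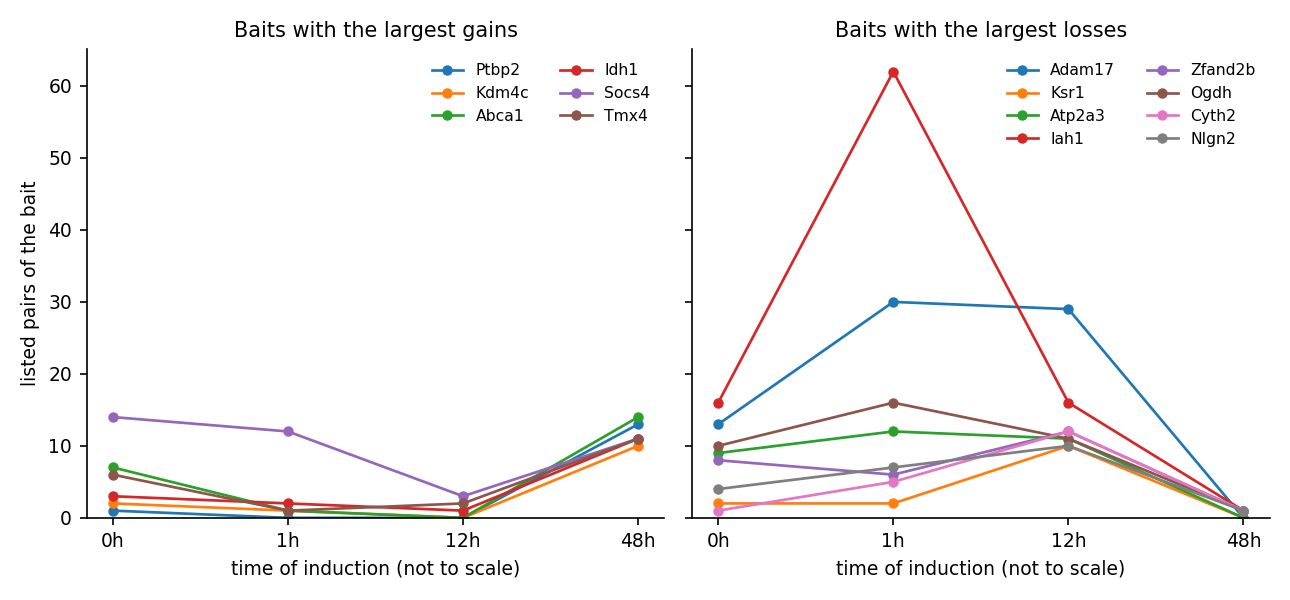
Number of listed pairs of 6 baits among those with the largest gain (left) and of the 8 with the largest loss (right) at each time of induction, 1 merged list per time. The gaining baits had between 0 and 3 pairs at 12h and between 10 and 14 at 48h, and the losing baits between 10 and 29 at 12h and 0 or 1 at 48h.

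RNA was then set beside the contacts. Of 16412 genes tested, 1241 (7.56%) were higher at 48h than at 12h and 1267 (7.72%) lower (limma adjusted p under 0.05 and a log2 change beyond 1, with the 4 times in 1 model). Without scaling between libraries, the median gene was lower by 0.62 on the log2 scale and the counts were 582 and 3910, so directions are given on the scaled values. Among the 6302 tested genes with a start site in a bait of at least 10 partners, 513 (8.14%) were higher and 613 (9.73%) lower.

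For genes at gaining baits, RNA was higher at 48h in a larger share, and lower in a smaller share, than over all these baits. Of 555 genes of gaining baits, 85 were higher (15.3%, Wilson 95% interval 12.6 to 18.6) and 24 lower (4.32%, 2.92 to 6.35). Of 919 genes of losing baits, 41 were higher (4.46%, 3.31 to 6) and 110 lower (12.0%, 10.0 to 14.2). The 4919 genes of the other baits lay between, with 8.01% higher and 9.94% lower. Neighbouring genes can share a bait, and the intervals take genes as independent, which they are not. The share of genes higher in RNA went from 4.17% where the bait change was between -2 and -1 to 16.0% where it was over 2, and the share lower went from 12.0% to 4.72% over the same bins.

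**Figure D3:**
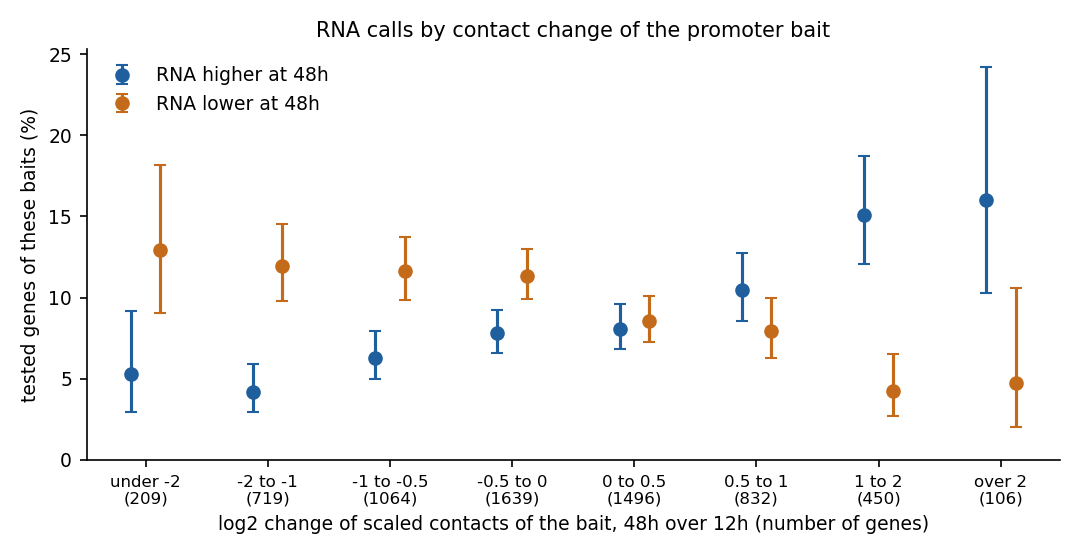
Share of tested genes (%) higher (blue) or lower (orange) in RNA at 48h, by the log2 change of the contacts of their bait, with Wilson 95% intervals and the number of genes in parentheses. The blue points go from 5.26% under -2 to 16.0% over 2, and the orange points from 12.9% to 4.72%.

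Seen from the RNA, 16.6% of the 513 higher genes had a gaining bait and 7.99% a losing one, against 8.81% and 14.6% of all 6302. Of the 613 lower genes, 3.92% had a gaining bait and 17.9% a losing one. Most genes whose RNA changed thus had baits in neither class. Across the 6607 pairings of a bait with a tested gene, Pearson's r between the contact change and the RNA change was 0.12 and Spearman's rho 0.14, a description across genes that share libraries and, in part, baits. With TPM as deposited, 7.75% of the genes of gaining baits were higher and 16.6% lower, against 3.51% and 28.9% of all, and 1.52% and 35.8% of the genes of losing baits.

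Base composition moved with the contacts. Across 7534 baits, the contact change and the GC content of the 200 kb around the bait had a Pearson's r of -0.40 and a Spearman's rho of -0.43. The baits were put in 4 groups of equal size by this GC content. In the group of lowest GC (35.9% to 42.6%), 23.0% gained and 5.36% lost, and in that of highest GC (47.8% to 55.1%), 2.34% gained and 24.6% lost. GC also moved with RNA, since 12.2% of the genes in the lowest group were higher and 5.87% in the highest. From low to high GC, the genes of gaining baits were higher in RNA in 18.7%, 12.6%, 10.3% and 9.68% of cases, against 12.2%, 8.49%, 6.35% and 5.87% of all genes of the group. The last values rest on 68 and 31 genes of gaining baits, of which 8.82% and 9.68% were lower, so in the group of highest GC as many were lower as higher. The genes of losing baits numbered 77, 135, 274 and 436 in the 4 groups. They were lower in 11.7%, 8.89%, 10.6% and 13.8% of cases, against 7.45%, 9.01%, 10.3% and 11.7% of all genes of the group. In the second group their share was thus no higher than that of all genes, and in the third it was nearly equal. The part of GC in the contact changes was not tested. Shares after centring on GC are given under the dependence on processing.

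**Figure D4:**
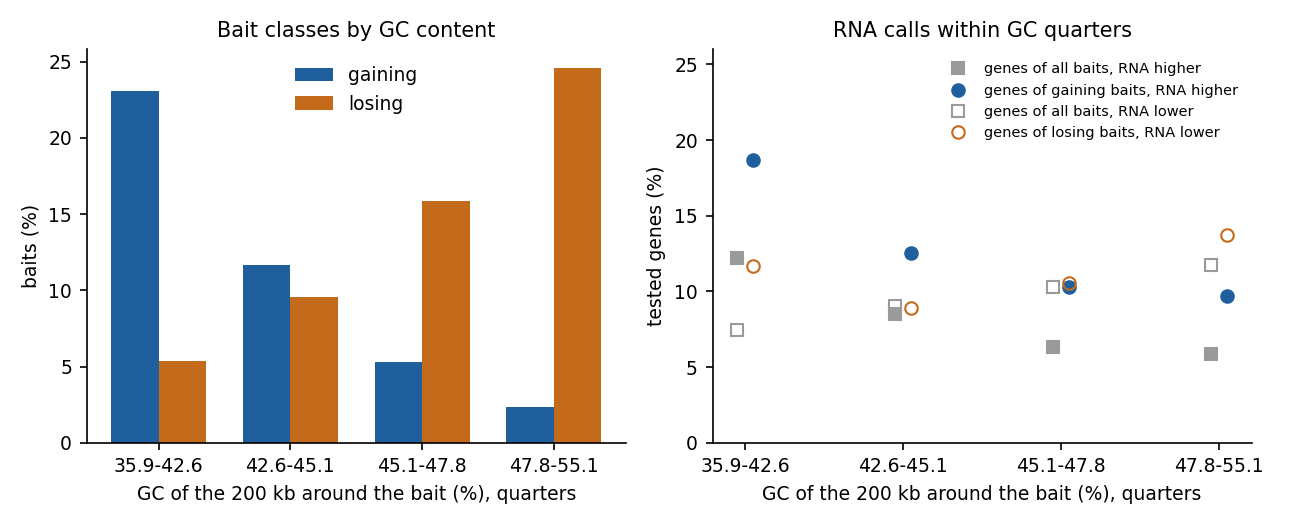
Left, share of baits (%) that gained or lost contacts in 4 groups by the GC content of the 200 kb around the bait. Right, share of tested genes (%) higher or lower in RNA in the same groups, for all genes (squares) and for those of gaining or losing baits (circles). Gaining baits go from 23.0% to 2.34% and losing baits from 5.36% to 24.6% as GC rises.

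The partner fragments differed in the same way. Partner fragments that were no baits had a median GC content of 43.9% when listed at both times (47701 fragments), 44.7% at 12h alone (17770) and 42.1% at 48h alone (25026). The C/EBP motif occurred 0.427, 0.417 and 0.461 times per kb in these 3 sets, against 0.513 per kb of genome. The motif CCCNNGGG of EBF1, a factor of the B lineage, occurred 0.245, 0.270 and 0.196 times per kb (genome 0.179), and the core AGGNGGC of the CTCF motif 0.561, 0.593 and 0.458 times (genome 0.399). The fragments were then divided into 4 groups by GC. From low to high GC, C/EBP motifs per kb were 0.546, 0.4784, 0.4142 and 0.342 in the fragments at 48h alone. In those at 12h alone they were 0.529, 0.4787, 0.410 and 0.335. For EBF1 the values at 48h alone and at 12h alone were 0.0911 and 0.0923 in the lowest group and 0.420 and 0.448 in the highest. For the CTCF core they were 0.261 and 0.274 in the lowest group and 0.811 and 0.884 in the highest. A match of letters is a description and no evidence of binding.

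Interferon-inducible genes had the highest median RNA change of the lists examined. They include the guanylate-binding proteins (Gbp), the Ifit proteins that bind foreign RNA, the sensors Ddx58 and Ifih1, and the factors that carry the interferon signal (Stat2, Irf7, Irf9). All 36 tested members rose, with a median log2 change of 4.0 against -0.01 for all genes. Rsad2, an antiviral enzyme for which no bait was found, rose most, from 0.0750, 0.135 and 0.0591 to 15.7, 17.1 and 17.0 scaled TPM (log2 change 6.48, SE 0.25, limma adjusted p = 7.62e-08). Of the 16 baits of this list with at least 10 partners, 6 gained (37.5%, against 10.6% of all baits) and 2 lost (12.5%, against 13.8%), and with library totals 6 and 0. From 5 partners, 7 of 21 gained and 6 lost. On the scale of library totals, 1618 and 535 of all 7535 baits gained and lost, and the counts on that scale given for this list and the other lists are to be set beside these. The earlier results of these data were known when the list was made, and the counts are a description.

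Baits that gained belonged to Gbp2 (9 pairs at 12h, 17 at 48h), Gbp3 (15 and 41), Gbp6 (4 and 14), Ifit3 (4 and 18), Ifi207 (4 and 10) and Ddx58 (12 and 27). Ifi207 had the largest change, from 7.32 to 33.9 ppm (log2 change 2.07), and its RNA rose from 0.844, 0.539 and 0.503 to 62.9, 60.7 and 40.1 scaled TPM (log2 change 6.23, SE 0.28, limma adjusted p = 1.46e-07). Ifit3 went from 28.6 to 77.3 ppm and from 0.534, 0.431 and 0.539 to 41.0, 40.6 and 41.7 scaled TPM. Contacts of Irf7, Stat2 and Oasl1 went the other way. Irf7 had 14 pairs at 12h and 7 at 48h (log2 change -1.36) with RNA of 3.22, 3.36 and 3.31 at 12h and 168, 151 and 220 at 48h. Stat2 had 11 and 5 pairs (-1.39) with RNA of 7.73, 9.72 and 8.98 against 70.7, 74.0 and 85.9. Oasl1, an antiviral protein, had 10 and 9 pairs over 3 baits, with a contact change of -1.46 and a log2 RNA change of 3.58 (SE 0.32, limma adjusted p = 1.49e-05). RNA of these 3 genes thus rose while the summed values of their contacts fell. No replicate of the contacts is at hand to set an error on that loss. Without pairs of 2 baits, 5 of 12 baits of this list gained and 0 lost.

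**Figure D5:**
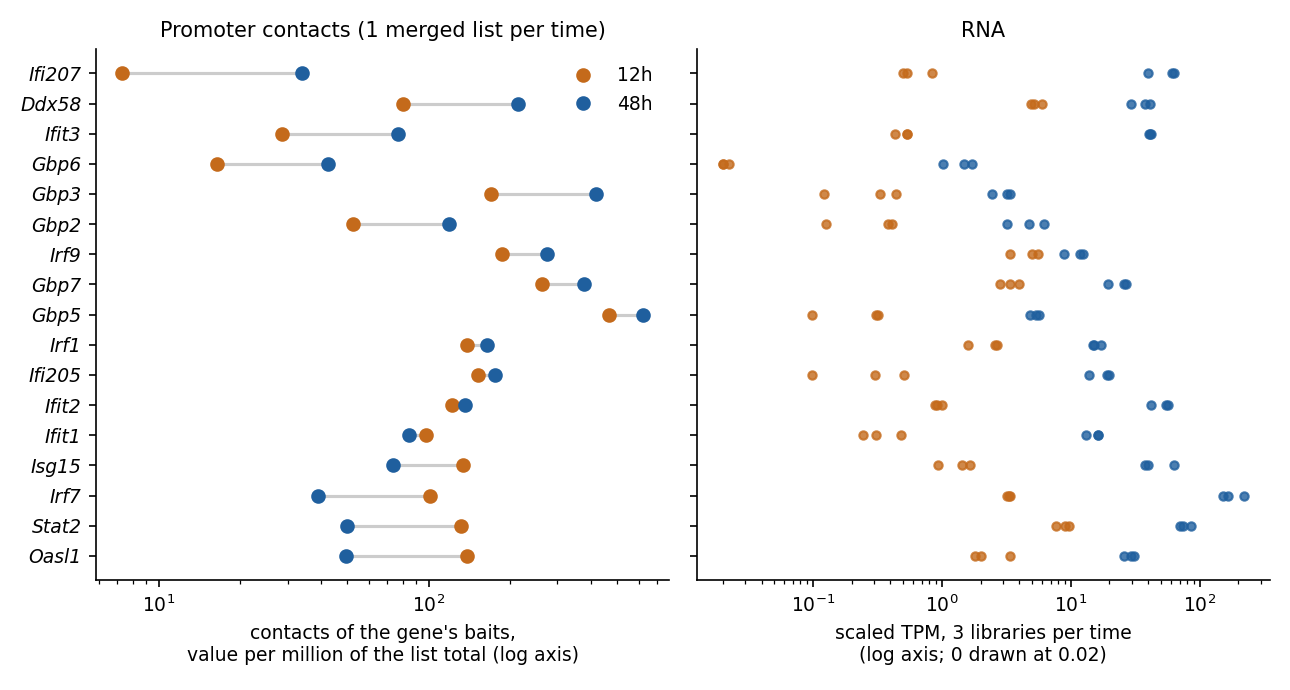
Contacts (left, ppm of the list total, 1 merged list per time, log axis) and RNA (right, scaled TPM of the 3 libraries per time, log axis, 0 drawn at 0.02) of the 17 interferon-inducible genes whose baits had at least 10 partners. RNA is higher at 48h in every library for all 17, whereas contacts are higher at 48h for 12 and lower for 5.

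The promoters of interferon genes with a gaining or losing bait are shown because the core of the interferon-stimulated response element lies in them on both sides of the contact change. The core GAAANNGAA, searched on both strands of the 250 bases before the start site in RefSeq's promoters, was found for 15 of the 25 list genes with an entry (60.0%) and for 8.18% of all 27025 genes. It was present for Gbp2, Gbp3, Ifit3, Ifi207 and Stat2 and not in this window for Ddx58, Irf7 and Oasl1. Capitals mark the core. The positions in GRCm38.p6 are chr3:142620413-142620662 (Gbp2, plus strand), chr3:142559794-142560043 (Gbp3, plus), chr19:34583279-34583528 (Ifit3, plus), chr1:173741810-173742059 (Ifi207, minus) and chr10:128270248-128270497 (Stat2, plus), each written 5′ to 3′ in the direction of transcription.
Gbp2 promoter: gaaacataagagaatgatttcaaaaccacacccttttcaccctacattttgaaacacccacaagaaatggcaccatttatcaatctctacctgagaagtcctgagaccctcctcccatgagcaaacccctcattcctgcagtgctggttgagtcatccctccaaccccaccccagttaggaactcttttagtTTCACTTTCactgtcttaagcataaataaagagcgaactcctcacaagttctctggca
Gbp3 promoter: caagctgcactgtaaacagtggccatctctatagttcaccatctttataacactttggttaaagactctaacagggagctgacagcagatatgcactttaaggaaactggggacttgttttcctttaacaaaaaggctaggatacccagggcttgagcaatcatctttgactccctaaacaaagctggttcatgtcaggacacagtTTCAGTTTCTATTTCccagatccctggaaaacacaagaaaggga
Ifit3 promoter: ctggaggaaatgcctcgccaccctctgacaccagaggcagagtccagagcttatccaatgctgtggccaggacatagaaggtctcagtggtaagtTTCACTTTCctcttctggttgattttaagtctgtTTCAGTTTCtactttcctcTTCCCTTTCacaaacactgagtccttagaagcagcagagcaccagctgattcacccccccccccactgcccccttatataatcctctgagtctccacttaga
Ifi207 promoter: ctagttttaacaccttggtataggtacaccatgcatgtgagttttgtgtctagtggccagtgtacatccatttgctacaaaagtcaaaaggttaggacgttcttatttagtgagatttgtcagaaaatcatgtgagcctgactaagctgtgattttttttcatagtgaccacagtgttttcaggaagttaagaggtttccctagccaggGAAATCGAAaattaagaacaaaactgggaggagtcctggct
Stat2 promoter: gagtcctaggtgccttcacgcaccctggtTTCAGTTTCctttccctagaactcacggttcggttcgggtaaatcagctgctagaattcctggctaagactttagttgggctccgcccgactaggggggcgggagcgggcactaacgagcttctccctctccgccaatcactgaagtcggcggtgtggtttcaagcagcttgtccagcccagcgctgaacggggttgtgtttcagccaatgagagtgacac

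Receptors and surface proteins of macrophages rose in RNA, with 23 of 30 tested higher and none lower. Of 16 baits 2 gained (12.5%, against 10.6% of all baits) and 1 lost (6.25%, against 13.8%), and with library totals 4 and 0. Cd36 gained most. Its bait held 4, 6, 28 and 60 pairs in the lists of 0h, 1h, 12h and 48h, with all 28 of the 12h list kept and 271 and 840 ppm (log2 change 1.63). Its RNA went from 0.131, 0.341 and 0.665 to 21.9, 21.9 and 15.4 scaled TPM (log2 change 5.52, SE 0.41, limma adjusted p = 4.36e-06). Itgam, which encodes CD11b, had 11 and 25 pairs (1.43) with RNA of 0.422, 0.216 and 0.606 against 10.3, 11.7 and 12.5. Siglec1, a sialic acid receptor with the largest RNA increase of the list, had 11 and 19 pairs but nearly equal sums (73.2 and 80.3 ppm), and its RNA rose from 0.0469, 0.0180 and 0.118 to 47.2, 49.5 and 65.7 (log2 change 8.43, SE 0.43, limma adjusted p = 2.66e-07). Csf1r, the CSF-1 receptor, had 17 and 9 pairs (-0.75) while its RNA rose from between 8.06 and 8.62 to between 23.3 and 30.5. Mertk, a receptor for apoptotic cells listed at 0 TPM in all 6 libraries, went from 11 to 3 pairs. In the list of 82 cytosolic ribosomal protein genes, 3 were also listed at 0 in all 6 libraries. Whether a level of 0 means that a gene is silent was not tested.

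Among chemokines and their receptors, 11 of 13 tested genes rose. Of 16 baits 4 gained (25%, against 10.6% of all baits) and 1 lost (6.25%, against 13.8%). These counts were 7 and 0 with library totals, 2 and 0 by the number of listed pairs, and 4 and 4 of 25 from 5 partners. Cxcr4 had 41 pairs at 12h and 84 at 48h (1.08), and its RNA rose from 0.722, 0.297 and 0.539 to 1.93, 2.40 and 2.51 scaled TPM (log2 change 2.00, SE 0.25, limma adjusted p = 1.92e-04). The other gaining baits were those of Ccl12 (2 and 15 pairs), Cxcl3 (11 and 26) and Ccr7 (8 and 17). Ccr7 was listed at 0 in all 6 libraries, and Ccl12 and Cxcl3 at under 0.5 scaled TPM at 48h. Ccl4 lost contacts, with 16 and 10 pairs (-1.39), while its RNA rose from 0.281, 0.18 and 0.702 to 4.35, 3.78 and 7.58 (log2 change 3.53, SE 0.40, limma adjusted p = 8.50e-05). Ccl6, with the largest RNA increase (log2 change 4.38, SE 0.35, limma adjusted p = 7.48e-06), had 25 and 27 pairs and a contact change of -0.13.

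Among C-type lectins of chromosome 6, pattern and adhesion receptors encoded in separate groups of neighbouring genes, 9 of 10 tested genes rose and 2 of 12 baits gained (16.7%, against 10.6% of all baits), none losing. With library totals 4 gained, and by the number of listed pairs none. Clec4d had 7 and 15 pairs (1.47) and the largest RNA increase of the list, from 0.197, 0.413 and 0.325 to 8.72, 7.25 and 5.07 scaled TPM (log2 change 4.11, SE 0.36, limma adjusted p = 1.25e-05). Clec12b gained as well (14 and 23 pairs) and was listed at 0 TPM in all 6 libraries. Olr1, the receptor for oxidized LDL, was the member that fell, by 2.87 on the log2 scale (SE 0.52, limma adjusted p = 0.00219), with 44 pairs at either time.

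Of 20 tested genes of lysosomal and secreted proteases 18 rose, and of 14 baits 1 gained (7.14%, against 10.6% of all baits) and 2 lost (14.3%, against 13.8%). With library totals 6 gained and 1 lost. Mmp12, the macrophage elastase, rose most, from 2.55, 2.35 and 2.09 to 781, 802 and 544 scaled TPM (log2 change 8.17, SE 0.20, limma adjusted p = 1.92e-09). Its bait had 72 pairs at 12h and 63 at 48h, up from 21 at 1h, and the sum went from 335 to 521 ppm (log2 change 0.63). Its contacts were thus listed at 12h, when its RNA was under 3 scaled TPM. Mmp13, a neighbour of Mmp12, had 65 and 89 pairs (0.96) and RNA of 3.49, 3.78 and 2.79 against 160, 154 and 120. Atp6v1a, a subunit of the lysosomal proton pump, gained (12 and 17 pairs, 1.37) with a log2 RNA change of 1.05 (SE 0.20, limma adjusted p = 0.00325) that was under 1 without 12h replicate 1 (0.96) or 48h replicate 1 (0.92). Ctsz, a cathepsin, lost (27 and 16 pairs, -1.37) with RNA not called.

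In lipid handling, 7 of 15 tested genes rose and 3 fell, but with TPM as deposited 3 rose and 4 fell. Of 13 baits 1 gained (7.69%, against 10.6% of all baits), that of Abca1 described above, and none lost, and with library totals 3 gained. With values of at least 10, none of 10 baits gained. Plin2, which coats lipid droplets, had 7 and 6 pairs (-0.87) while its RNA rose from 16.5, 22.7 and 21.4 to 60.3, 48.3 and 52.7 scaled TPM (log2 change 1.41, SE 0.26, limma adjusted p = 0.00224). Apoc2, an apolipoprotein for which no bait was found, rose from 0, 0.216 and 0.170 to 28.7, 36.4 and 46.8.

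Of myeloid transcription factors, 9 of 28 were higher and 3 lower, but with TPM as deposited 3 were higher and 4 lower. Of 20 baits 2 gained and 2 lost (10.0% each, against 10.6% and 13.8% of all baits), and with library totals 2 and 0. Jun, part of the AP-1 factor, rose from 6.67, 7.33 and 6.41 to 36.0, 38.8 and 42.6 scaled TPM (log2 change 2.51, SE 0.13, limma adjusted p = 3.58e-07), with 102, 68, 47 and 50 pairs in the lists of 0h, 1h, 12h and 48h. Bhlhe40 fell by 2.79 (SE 0.24, limma adjusted p = 1.17e-05) with 62 and 64 pairs and a contact change of -0.19. Gaining baits were those of Klf4 (3 and 9 pairs) and Maf (7 and 12), both listed at 0 TPM in all 6 libraries. Losing baits were those of Cebpg (13 and 8 pairs, -1.23) and Cebpb (17 and 8, -1.15), with log2 RNA changes of -0.10 and 0.66 that were not called.

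Pre-B cell genes went both ways from 12h to 48h. Of 36 tested, 6 rose and 6 fell, and with TPM as deposited 2 rose and 12 fell. Of 23 baits 2 gained and 2 lost (8.70% each, against 10.6% and 13.8% of all baits). These counts were 4 and 1 with library totals and 0 and 1 by the number of listed pairs. Pax5, the factor that maintains B cell identity, had 37, 15, 14 and 27 pairs in the lists of 0h, 1h, 12h and 48h, with 77.8 and 175 ppm (log2 change 1.16). Its RNA was 2.59, 2.87 and 2.34 scaled TPM at 12h and 4.51, 5.37 and 5.99 at 48h, without overlap. The log2 change of 0.99 (SE 0.14, limma adjusted p = 4.78e-04) missed the limit of 1, and it passed it without 12h replicate 2 (1.06) or 48h replicate 1 (1.10). Il7r, the IL-7 receptor, followed a like course (29, 9, 6 and 13 pairs) and rose from 0.0281, 0 and 0 to 1.18, 0.934 and 1.24 scaled TPM. Tcf3, which encodes the E2A proteins, lost most (21 and 8 pairs, -2.06), with RNA of 4.95, 4.15 and 4.30 against 2.22, 2.26 and 3.45 (log2 change -0.76, not called). Myb, a factor of dividing progenitors, fell by 2.63 (SE 0.18, limma adjusted p = 2.30e-06) with 40 and 41 pairs.

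Genes of DNA replication and cell division fell, with 31 of 46 lower and 1 higher, and none of their 22 baits gained while 5 lost (22.7%, against 13.8% of all baits). With library totals 1 gained and 2 lost. The losing baits were those of Pole, a DNA polymerase (19 and 3 pairs, -1.92), Rrm2, which makes deoxyribonucleotides (37 and 20, -1.39), E2f2 (11 and 3, -2.09), Orc6 (13 and 7, -1.29) and Espl1 (11 and 7, -1.14). Rrm2 fell from 3.39, 3.46 and 2.79 to 0.0956, 0.446 and 0.373 scaled TPM (log2 change -3.16, SE 0.31, limma adjusted p = 3.32e-05), and Pole by 2.38 (SE 0.26, limma adjusted p = 6.83e-05). Other members fell without a losing bait. Ccnb2, a cyclin, fell by 4.43 (SE 0.22, limma adjusted p = 2.46e-07) with 11 and 18 pairs and the largest contact gain of the list (0.55), and Aurka, a mitotic kinase, had a log2 RNA change of -4.77 (SE 0.23, limma adjusted p = 2.09e-07) with 24 and 23 pairs.

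Replication-dependent histone genes fell in 52 of 66 cases and rose in none, while 2 of 21 histone baits gained contacts (9.52%, against 10.6% of all baits) and none lost them. These counts were 6 and 0 with library totals, but 0 and 2 of 15 without pairs of 2 baits. Hist1h4j had 2 pairs at 12h and 15 at 48h (1.64) while its RNA fell from 5.15, 11 and 7.43 to 0.383, 0.251 and 1.46 scaled TPM. The bait of Hist1h2af, which holds other histone start sites as well, had 58 and 55 pairs with nearly equal sums (325 and 333 ppm), and the gene went from 7.75, 10.9 and 8.53 scaled TPM to 0 in all 3 libraries. Histone genes are near-identical copies, so that reads may be shared between them and the values of single genes are uncertain.

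Cytosolic ribosomal protein genes, which encode the parts of the ribosome, had 12 of 51 baits losing (23.5%, against 13.8% of all baits) and 1 gaining (1.96%, against 10.6%), with library totals 5 and 3. Their RNA was mostly not called (7 of 76 lower, none higher), but 62 were lower with TPM as deposited, 23 without 48h replicate 3, 20 without the 20 most abundant genes and 14 with quantile normalization. Rpl18 lost most, with 29 and 10 pairs (-1.83) and RNA of 107, 121 and 126 against 79.8, 72.9 and 105 scaled TPM (log2 change -0.48, not called). Of 131 baits with a start site of an olfactory receptor gene, a receptor family of smell neurons, 45 gained and 12 lost, against 10.6% and 13.8% of all baits.

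Of the genes whose contacts the study's text names, Btg1, which restrains proliferation, gained most pairs. It had 15, 13, 21 and 59 in the lists of 0h, 1h, 12h and 48h, with all 21 of the 12h list kept, and its RNA rose from 8.03, 8.75 and 10.3 to 32.7, 33.0 and 45.3 scaled TPM (log2 change 2.02, SE 0.24, limma adjusted p = 1.31e-04). Ccl7, a monocyte attractant whose bait also holds the Ccl11 start site, had 9 and 16 pairs (0.55) and RNA of 0.113, 0 and 0 against 0.797, 1.95 and 0.745 (log2 change 3.17, SE 0.44, limma adjusted p = 3.93e-04). Ssbp1, a mitochondrial DNA-binding protein, had 16 and 27 pairs (0.81). Clcf1, a B cell stimulating cytokine, had 22 and 17 pairs over 2 baits (-0.42), of which 1 lost contacts beyond the limit. Of the 7 baits of the named genes with at least 10 partners, 3 gained (42.9%, against 10.6% of all baits) and 1 lost (14.3%, against 13.8%). With library totals 4 gained and none lost. Maf1, a repressor of RNA polymerase III, had 6 and 8 pairs, and Suz12, a Polycomb subunit, had 13, 4, 1 and no pairs in the lists of 0h, 1h, 12h and 48h, both too few for a change by the rule used here. RNA of Ssbp1, Clcf1, Maf1 and Suz12 had log2 changes between -0.14 and 0.002, none called. The study chose these genes on these samples, so they are no independent evidence.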

How the data were processed

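PCHi-C (HindIII) and RNA-seq were done on C10 cells at 0h, 1h, 12h and 48h. For PCHi-C, the authors aligned reads to mm10 with HiCUP, called interactions with CHiCAGO and merged 2 replicates per time, and they deposited 1 list per time. The deposited 1h, 12h and 48h lists hold whole numbers without a named unit, taken here as counts of read pairs, and the deposited 0h list holds CHiCAGO scores, of which only the presence of a pair was used. For RNA, TPM values were deposited by the authors for 12 libraries, 3 per time (Trim Galore 0.6.2, HISAT2 2.1.0 and RSEM, per the labels). TPM keeps no read counts, and the depth behind single values was not used here.

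Both orders of a fragment pair were joined. Each list was scaled to its total, and a bait's change was the log2 ratio of its summed scaled values (pseudocount 1 ppm, at least 10 partners, limit 1), with no test. The read totals of the libraries served as an alternative scale. TPM was divided by median-of-ratios factors (0.628 to 1.35 at these times) and log2(TPM + 0.1) was tested with limma 3.58.1 in R 4.3.3 over 12 libraries, after genes averaging under 0.1 TPM were left out. A gene was called at a p under 0.05 after Benjamini-Hochberg adjustment if its log2 change was beyond 1. Fold changes are on that log2 scale, which understates low genes. On simulated data 66% of log2 changes of 2 and 58% of those of 1.5 were recovered (100 genes each of 15994), with 3 unchanged genes called. The labels call the RNA samples biological replicates of 1 line, and the spread may be partly technical. Intervals are Wilson 95% (scipy 1.17.1) and cover counting error only.

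Start sites came from GENCODE M21, which held all 55450 genes of the TPM table, and sequences from GRCm38.p6 and RefSeq. All 127024 fragments began at a HindIII site in it. Named genes were those of the study's text, the 8 baits with the largest gain and the 8 with the largest loss that hold a start site of a coding gene averaging 1 scaled TPM or more at either time, from each gene list the members with the largest contact and RNA changes, and the 5 pairs with the largest change each way. The values of 2 baits that this rule names are not reported here. Members and lists were chosen with earlier results of these data known. Aurka, Ccr7, Cebpb, Clec12b, Csf1r, Cxcr4, Ddx58, Espl1, Gbp2, Gbp3, Gbp6, Ifit3, Irf7, Itgam, Maf, Mmp13, Orc6, Pole, Rrm2, Stat2, the olfactory receptors and the printed sequences were chosen after their values were seen. Settings tried are given under the dependence on processing.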

Additional observations from a re-analysis of the deposited data

How the results depend on the processing

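The contact counts varied with the scaling and with which pairs were taken as listed. A partner within 10 kb raised the share of 12h pairs found at 48h to 85.2% and of 48h pairs found at 12h to 84.1%, values of at least 10 gave 67% and 61.6%, and leaving out pairs of 2 baits gave 52.8% for the second. Gaining and losing baits numbered 1618 and 535 with library totals, 0 and 0 with the pairs in both lists alone (3047 baits, a choice that itself limits the change), 1393 and 2014 from 5 partners, 367 and 361 from 20, 1785 and 2217 at a log2 limit of 0.5, and 186 and 233 at a limit of 2. Pairs in both lists with a higher or lower value numbered 5150 and 113 with library totals, and the median distance at 48h exceeded that at 12h by 12.1 kb with values of at least 10.

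Genes higher and lower in RNA numbered 582 and 3910 with TPM as deposited, 700 and 533 with a pseudocount of 1 TPM, 505 and 369 beyond a log2 change of 2, 781 higher from a mean TPM of 1, and 1954 lower with no fold limit. Among genes of gaining baits, the percentages higher and lower were 7.75 and 16.6 with TPM as deposited, 11.4 and 6.49 without the 20 most abundant genes, 10.3 and 1.62 with a pseudocount of 1, 6.67 and 1.44 beyond a log2 change of 2, and 21.3 and 7.57 with no fold limit. Without a filter 12.1% were higher, and by the number of listed pairs 7.83% were lower. Among genes of losing baits, they were 1.52 and 35.8, 3.26 and 16.8, 2.39 and 5.11, 1.31 and 2.94, and 7.29 and 19.3 under the same 5 settings. The percentage lower was also 14.8 from a mean TPM of 1, 9.37 with no filter, 8.6 with the 6 libraries alone, and between 10.1 and 14.9 when 1 library was left out (14.9 without 48h replicate 3). The GC settings were chosen after seeing the data. In the GC groups alone, from low to high, genes of gaining baits were higher in 18.7%, 10.3% and 9.68% and lower in 2.77%, 8.82% and 9.68% (groups 1, 3 and 4), and genes of losing baits were higher in 0.0% (group 1) and lower in 8.89% (group 2). After centring on GC, 14.4% and 6.3% of the genes of gaining baits were higher and lower, and 4.88% and 10.7% of those of losing baits. With the settings used above, 8.14% of all genes of baits with at least 10 partners were higher and 9.73% lower.

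Signs of small RNA changes that limma did not call turned in 13 genes. With TPM as deposited the log2 changes were -0.732 (Maf1), -0.142 (Ptbp2), -0.401 (Kdm4c), -0.131 (Idh1), -0.584 (Socs4), -0.669 (Adam17), -0.619 (Atp2a3) and -0.291 (Ctsz). With quantile normalization they were 0.0145 (Clcf1), -0.0792 (Maf1) and -0.139 (Adam17), without the 20 most abundant genes -0.189 (Maf1), -0.0726 (Socs4), -0.117 (Adam17) and -0.0739 (Atp2a3), and with a pseudocount of 1 TPM 0.00993 (Clcf1). With 1 library left out they ranged from -0.378 to 0.0649 (Suz12), -0.403 to 0.249 (Clcf1), -0.196 to 0.186 (Maf1), -0.204 to 0.221 (Ssbp1), -0.0919 to 0.272 (Socs4), -0.00235 to 0.197 (Adam17), -0.149 to 0.281 (Atp2a3), -0.267 to 0.0886 (Cyth2) and -0.201 to 0.0506 (Cebpg). The cause was not tested in any of these.

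With the replicate number as a block, 1244 genes were higher and 1300 lower. Deviations of same-numbered libraries correlated at 0.108, 0.0224 and 0.195, the last being the highest of all pairings. However, 48h replicate 2 correlated best with 12h replicate 1 (0.0798). Whether same-numbered libraries share more than a number was not tested. Each contact list is 1 merged library pool, so no contact change has a replicate error.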

Other observations

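Some regions of 1 Mb, chosen after their values were seen, held many of the differing pairs. The largest net gain was on chromosome 10 from 34000001 to 35000000, around Dse, Rwdd1 and Tspyl1, where 514 pairs were in both lists, 37 at 12h alone and 333 at 48h alone. A region of chromosome 2 from 89000001 to 90000000, which holds olfactory receptor genes, had 47 pairs at 12h alone and 312 at 48h alone. The region of chromosome 7 from 128000001 to 129000000, which holds Itgam and Itgax, integrin genes of myeloid cells, had 47 and 265.

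The largest net loss was also on chromosome 7, from 19000001 to 20000000, with 456 pairs at 12h alone and 74 at 48h alone. That region holds Apoc2 and Vasp, and of its 37 tested coding genes 3 were higher in RNA and 6 lower. On chromosome 11 from 99000001 to 100000000, around Igfbp4, Smarce1 and Top2a, 317 pairs were at 12h alone and 114 at 48h alone. By chromosome, leaving out Y with 1 bait, the share of gaining baits was lowest on chromosome 8 (3.73%) and highest on X (19.0%), and the share of losing baits was highest on chromosome 7 (22.4%).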
